A study of Mus musculus with 3 samples.

Results

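Id1, Id2 and Bmpr1a, 3 of the 258 genes counted in sections of mouse mammary tumours, were chosen by name for their place in bone morphogenetic protein (BMP) signalling. Bmpr1a encodes a type I BMP receptor, a membrane kinase that phosphorylates SMAD proteins once a ligand has brought it together with a type II receptor. Id1 and Id2 encode helix-loop-helix proteins that lack a DNA-binding region and hold basic helix-loop-helix transcription factors away from DNA. Id1 is a widely used target gene of BMP-activated SMADs and is known for its expression in growing blood vessels. Id2 also answers to other inputs and is known in the mammary gland for its part in the growth and differentiation of the secretory epithelium.

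The samples were formalin-fixed, paraffin-embedded sections of 3 distinct tumours titled MMTV-PyMT WT, untreated and without a control group. In this model the mouse mammary tumour virus promoter drives the polyoma middle T oncogene in mammary epithelium, and all 3 tumours share it. Neither age nor strain nor what WT stands for is given in the labels. Single transcripts were decoded in place on the MERSCOPE platform, which reads barcodes by repeated rounds of fluorescence in situ hybridization and assigns each transcript to a segmented cell.

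The tables listed 513963 to 786165 cells per tumour and 60759690 to 78051090 panel transcripts. A cell was kept where it held 20 or more panel transcripts and its volume lay between 50 µm3 and 3 section medians, which left 453995 to 673638 cells with medians of 94 to 106 transcripts. Alongside the genes, 27 Blank codes that match no gene measured false decoding, at 0.481% to 0.503% of transcripts. All levels below are counts of the gene per 1000 panel transcripts summed over the named cells of a tumour, with Blanks left out of the denominator. The levels compare cells for the same gene, since probes and lengths differ between genes.

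The 3 genes stood at very different heights above the Blanks. Over all listed cells the Id2 total was 31.6, 28.5 and 29.9 times that of the highest Blank in tumours 1, 2 and 3. The Id1 total was 2.38, 1.69 and 2.81 times that Blank. Both genes were therefore above false decoding in every section. The Bmpr1a total was 1.18 and 1.25 times the highest Blank in tumours 1 and 2 but 0.81 times in tumour 3, where 2 Blanks had more counts than Bmpr1a. Over all listed cells Bmpr1a thus lay only just above the false-decoding level in tumours 1 and 2 and not above it in tumour 3. Its values are given with that limit.

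Cells were assigned to classes by marker transcripts, with at least 3 transcripts from at least 2 genes of a list and with conflicts set aside as mixed. The epithelial list was Cdh1, Krt7, Cldn4, Gata3, Krt5, Krt14, Krt15, Krt17 and Trp63. Epithelial-gated cells took 47.0% ± 3.9 of the kept cells (SD, n = 3), fibroblast-gated cells 16.3% ± 2.5, and the endothelial gate, which rests on the junction genes Pecam1 and Cdh5 alone, 1520 to 3969 cells per tumour. The pericyte gate held 5472 to 8864 cells and the macrophage gate 624 to 3614. The gates were not pure. Epithelial markers summed to 82.5 per 1000 in epithelial-gated cells, but also to 16.8 in endothelial-, 40.01 in pericyte-, 43.4 in fibroblast- and 34.2 in macrophage-gated cells. A strict gate with at least 5 marker transcripts and at most 2 epithelial ones brought the epithelial markers down to 7.12, 9.40, 8.0 and 10.4 per 1000 in those 4 classes, and values under it are given beside the first ones.

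Id1 rose most in endothelial-gated cells. In endothelial-gated cells its level was 8.45, 10.97 and 6.18 per 1000 in tumours 1, 2 and 3, and 44.7%, 54.1% and 40% of the cells held an Id1 transcript. In epithelial-gated cells it was 1.03, 0.55 and 1.09. The groups did not overlap, and the endothelial level was the higher in each tumour. The log2 fold change was 3.28 ± 0.37 (SE), with an adjusted p of 0.000323 (edgeR's quasi-likelihood test with the tumour as a block, two-sided, Benjamini-Hochberg over 258 genes). In this comparison 72.9% of all genes passed the threshold, so passing it is common and the size of the Id1 difference says more than its call. The share of all genes with groups that do not overlap was not counted, in this or later comparisons. Of the 27 Blanks, 7 were called higher and 11 lower here, with log2 values from -1.65 to 1.31, and the Id1 value lay beyond that range. In the purer cells of the strict gate the Id1 level was 9.45, 12.9 and 7.01 per 1000.

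Among the other classes, Id1 rose in pericyte-gated cells, at 1.50, 1.01 and 1.40 per 1000. The log2 fold change over epithelial-gated cells was 0.59 ± 0.14 (adjusted p = 0.0179, edgeR), in a comparison where 27.5% of genes were called and Blanks ran from -0.18 to 1.002, so the Id1 value lay inside the Blank range. The levels of the 2 classes overlapped between tumours. Under the strict gate Id1 reached 2.87, 2.74 and 2.52 per 1000 in pericyte-gated cells, all above the strict epithelial range of 0.552 to 1.07. In tumour 2 the highest Blank was above Id1 in these cells at the first gate (1.25 per 1000) and under the strict gate (5.31). The pericyte call was lost without tumour 2 (0.45, adjusted p = 0.156).

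Fibroblast-gated cells had 1.20, 0.981 and 1.215 Id1 per 1000, and the difference from epithelial-gated cells did not pass (0.41 ± 0.19, adjusted p = 0.0908). Macrophage-gated cells had 0.706, 0.580 and 0.826, also without a call (-0.29 ± 0.20, adjusted p = 0.271). There 2 Blanks were above Id1 in tumour 2 and 5 in tumour 3. T- or NK-gated cells, only 194 to 306 per tumour, had 0.517, 0.532 and 1.20 and were not tested, with 1 Blank above Id1 in tumours 2 and 3. Id1 was thus not above false decoding in every tumour in the pericyte, macrophage and T or NK classes. In order, Id1 was highest in endothelial-gated cells at 8.53 ± 2.40 (SD, n = 3), then in pericyte- (1.30 ± 0.26), fibroblast- (1.13 ± 0.13), epithelial- (0.889 ± 0.295), T- or NK- (0.751 ± 0.393) and macrophage-gated cells (0.704 ± 0.123). Below the endothelial class, neighbours in this order lay within their spread.

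Id2 ran the other way between the epithelium and the vessels. The Id2 level in epithelial-gated cells was 17.2, 14.5 and 12.8 per 1000, with a transcript in 73.2%, 69.8% and 66.9% of the cells. In endothelial-gated cells it was 4.28, 3.96 and 4.65. The groups did not overlap, the epithelial level being the higher in each tumour. The log2 fold change of endothelial over epithelial cells was -1.78 ± 0.16 (adjusted p = 0.000169, edgeR), below the lowest Blank at -1.65. As given for Id1, 72.9% of all genes were called in this comparison. Under the strict gate the endothelial level was 2.57, 2.67 and 3.49 per 1000.

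**Figure D1:**
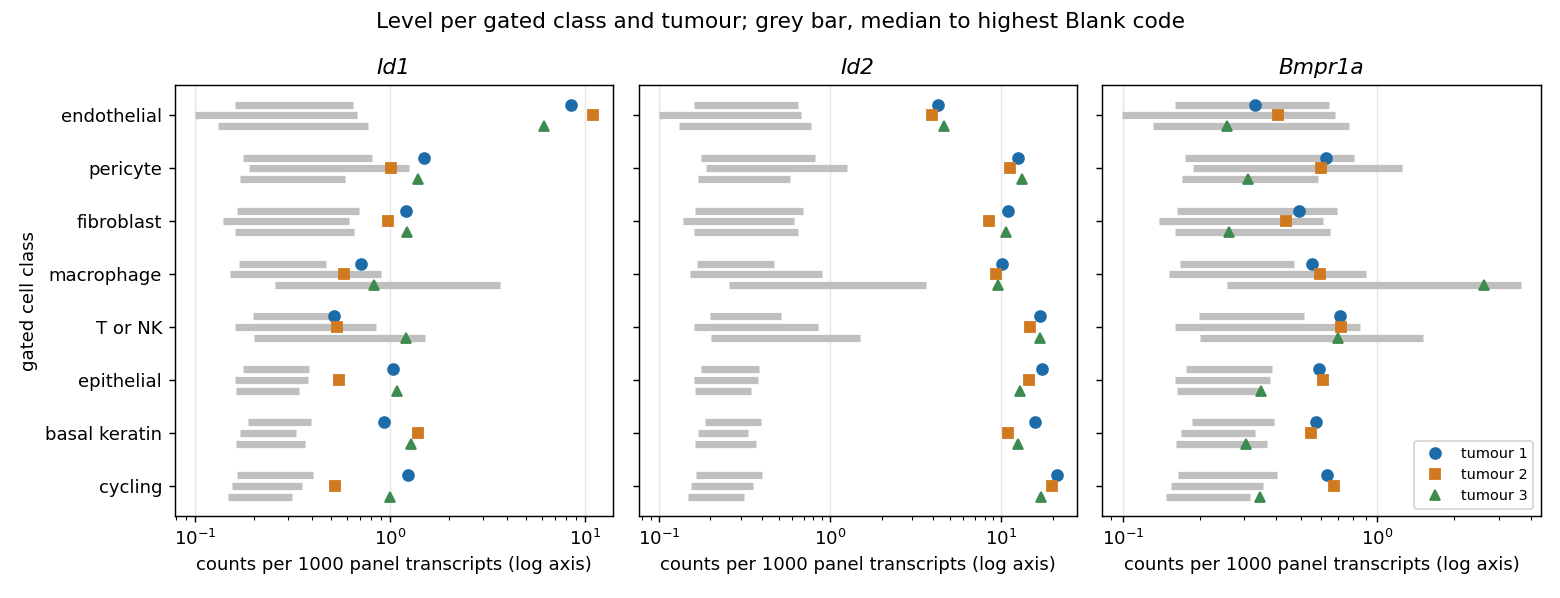
Levels of Id1, Id2 and Bmpr1a in counts per 1000 panel transcripts (log axis) by gated class, with 1 point per tumour and a grey bar from the median to the highest Blank of the same cells. Id1 stands apart in endothelial-gated cells (6.18 to 10.97), Id2 is lowest there (3.96 to 4.65), and Bmpr1a lies inside the grey bar in the endothelial, pericyte and fibroblast classes.

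Id2 also fell in fibroblast- and macrophage-gated cells. Fibroblast-gated cells had 10.9, 8.51 and 10.7 per 1000, all below the epithelial values, with a log2 fold change of -0.56 ± 0.14 (adjusted p = 0.0124, edgeR). Here 62.8% of all genes were called, and Blanks ran from -0.41 to 0.98. That call was lost without tumour 1 (adjusted p = 0.0834) and without tumour 2 (0.131), and also with a library size that leaves out the gate markers (0.0882). Macrophage-gated cells had 10.04, 9.35 and 9.53 per 1000 and a log2 fold change of -0.61 ± 0.10 (adjusted p = 0.00371), where 53.9% of genes were called and the lowest Blank was at -0.59.

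Under the strict gate Id2 stood at 3.41, 2.76 and 4.27 per 1000 in fibroblast-gated cells (log2 -2.12) and at 5.69, 5.57 and 6.11 in macrophage-gated cells (-1.375). In pericyte-gated cells it moved from 12.5, 11.2 and 13.2 (log2 -0.26 ± 0.12, adjusted p = 0.159) to 3.42, 3.87 and 6.30 (-1.76, adjusted p = 3.41e-05). With the strict gate 64 of 258 genes were called higher and 101 lower in pericyte-gated cells, with a median of -0.34 over all genes. In fibroblast-gated cells these were 82 and 129 (median -0.43), and in macrophage-gated cells 79 and 70 (0.14). The highest Blank was above Id2 under the strict gate in pericyte-gated cells of tumour 2 (5.31 per 1000) and in macrophage-gated cells of tumour 3 (7.02), so those 2 levels were not above false decoding. Epithelial markers dropped in the same step, as given above, and their part in the Id2 levels at the first gate was not tested further. T- or NK-gated cells had 16.9, 14.7 and 16.8 Id2 per 1000 and were not tested. Epithelial markers summed to 42.6 per 1000 in them, and no strict-gate level was taken for this class.

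For Bmpr1a the class comparisons gave small differences at the edge of what the assay resolves. Epithelial-gated cells had 0.589, 0.609 and 0.348 per 1000, above the highest Blank of the same cells in all 3 tumours (0.384, 0.379 and 0.343), in tumour 3 by a thin margin. A transcript was seen in 6.05%, 7.65% and 4.09% of these cells. Endothelial-gated cells had 0.332, 0.407 and 0.257, under their highest Blank in every tumour, with 3, 1 and 7 Blanks above Bmpr1a. The groups overlapped, since the epithelial level of tumour 3 lay below the endothelial level of tumour 2.

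The log2 fold change of Bmpr1a in endothelial over epithelial cells was -0.62 ± 0.16 (adjusted p = 0.0104, edgeR), inside the range of the Blanks. Scaling ended this call. The median over all genes was -0.43 in this comparison, and with TMM scaling it was -0.03, which left -0.22 ± 0.15 for Bmpr1a (adjusted p = 0.234). The calls over all genes split into 62 higher and 126 lower at first and into 82 and 90 with TMM and 93 and 97 with DESeq2. Id1 and Id2 kept their calls there under each alternative run. The Bmpr1a call was also lost without tumour 1 (adjusted p = 0.0987) and without tumour 2 (0.0645).

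In fibroblast-gated cells Bmpr1a fell by 0.39 ± 0.14 on the log2 scale (adjusted p = 0.0477), from levels of 0.490, 0.436 and 0.260 per 1000. The groups overlapped and none of these levels passed the highest Blank, and the difference lay inside the Blank range given above. The call was lost when any of tumours 1, 2 or 3 was left out (adjusted p = 0.138, 0.134 and 0.116) and with TMM (0.149). Pericyte-gated cells, at 0.625, 0.598 and 0.310, gave -0.03 ± 0.13 (adjusted p = 0.862).

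Macrophage-gated cells had Bmpr1a at 0.554, 0.596 and 2.62 per 1000, but the value of tumour 3 rested on few cells. There 143 transcripts lay in 26 cells, and 2 cells held 75 and 32 of them. Without cells with more than 5 Blank transcripts, 17 of the macrophage-gated cells in that tumour, the level was 0.511. The log2 fold change went from 0.86 ± 0.65 (adjusted p = 0.315) to 0.08 with the same removal in all tumours, and it was -0.06 without tumour 3 and 1.40 (adjusted p = 0.0157) without tumour 2.

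**Figure D2:**
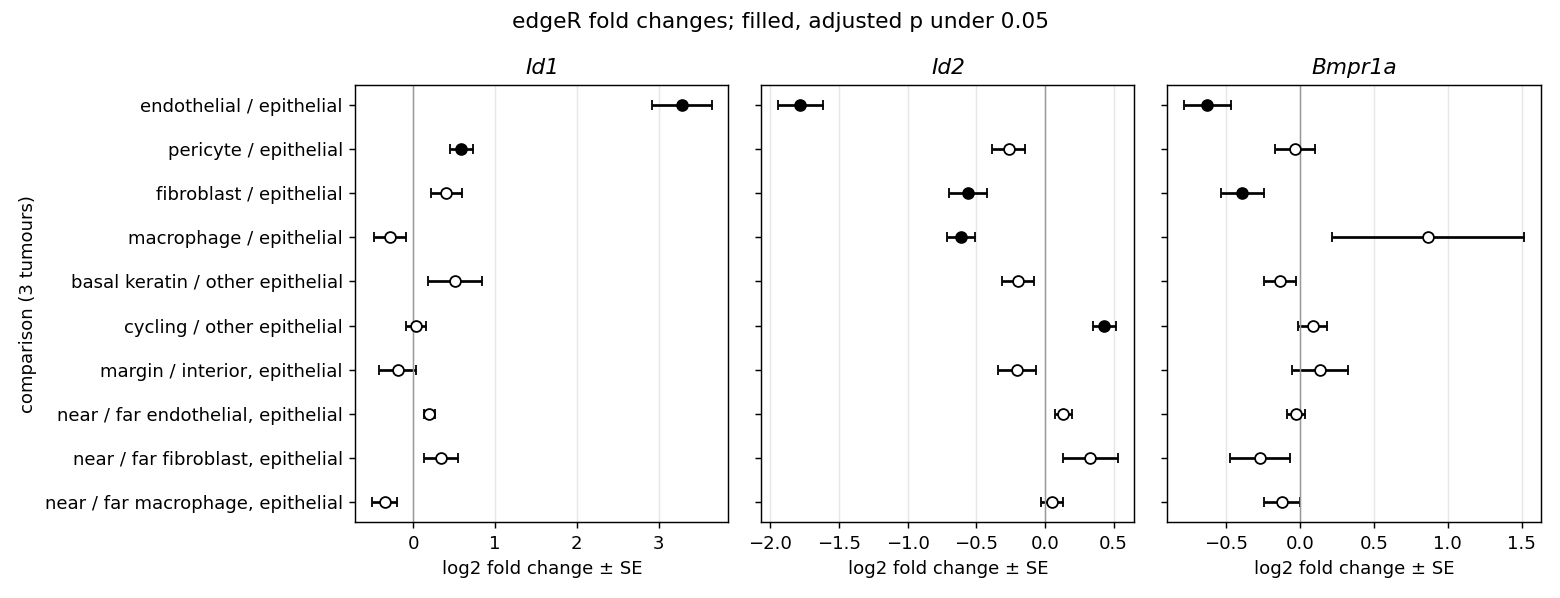
Log2 fold change with its standard error for Id1, Id2 and Bmpr1a in 10 comparisons over 3 tumours (edgeR with the tumour as a block), filled where the adjusted p passed the threshold. Id1 in endothelial over epithelial cells (3.28) and Id2 in the same comparison (-1.78) are the farthest from 0, while Id2 in cycling cells is the filled point at 0.43.

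Other genes of BMP and TGF-beta signalling on the panel were followed as a list of 13 with the 3 genes included, of which 9 were above the highest Blank in all sections. The third Id gene, Id3, showed the endothelial pattern of Id1. Its level in endothelial-gated cells was 3.18, 3.15 and 1.08 per 1000, against 0.189, 0.157 and 0.171 in epithelial-gated cells, where 11 to 14 Blanks were above it. The groups did not overlap, and the log2 fold change was 3.71 ± 0.37 (adjusted p = 0.000228, edgeR). Over all cells Id3 was below the highest Blank in each tumour (0.573, 0.509 and 0.436 times), and over all tested classes it passed the highest Blank in all 3 tumours in the endothelial class alone.

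Of the 10 list genes other than the 3, endothelial-gated cells had 2 called higher and 6 lower, with a median of -0.77 against -0.43 over all genes. The 8 of 10 called stand beside the 72.9% over all genes. Beside Id3, the higher one was the ligand Tgfb1 (1.19 ± 0.17). The lower ones were the latent TGF-beta binding protein Ltbp2 (-2.10), the ligand Tgfb3 (-1.45), the co-repressor Tgif1 (-1.41), the feedback gene Pmepa1 (-1.11) and the co-receptor Tgfbr3 (-0.67). The ligand Tgfb2 was also called (-0.86), but 15 to 18 Blanks were above its total and the endothelial arm held 33, 32 and 8 of its transcripts, so it was not measured above false decoding. Apart from Id3 and Ltbp2, the called list genes lay inside the Blank range of this comparison, -1.65 to 1.31. In pericyte- and fibroblast-gated cells 1 gene was higher and 1 lower in each, where 27.5% and 62.8% of all genes were called. These were the same genes, Id3 higher (1.35 and 0.64) and Tgif1 lower (-0.49 and -0.84). The Id3 value in fibroblast-gated cells lay inside the Blank range of -0.41 to 0.98. The list's medians were -0.04 and -0.15, against -0.01 and -0.15 over all genes. The split of calls over all genes moved with the scaling. They were 49 higher and 22 lower in pericyte-gated cells, 39 and 47 with cell volume and 53 and 74 with DESeq2. In fibroblast-gated cells they were 73 and 89, then 80 and 53 with TMM and 100 and 29 without gate markers in the library size.

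Macrophage-gated cells had 3 higher and 4 lower of the 10, where 53.9% of all genes were called (76 higher and 63 lower, and 56 and 119 with cell volume). The higher list genes were the receptors Tgfbr1 (2.89 ± 0.20) and Tgfbr2 (0.80 ± 0.11) and the ligand Tgfb1 (1.91). In tumour 3 the Tgfbr1 level of 1.95 per 1000 was under the highest Blank of 3.65. Ltbp2 (-0.95), Tgfbr3 (-0.83), Tgif1 (-0.53) and Tgfb3 (-0.50) were lower, and the list's median was -0.11 against 0.13 over all genes. Blanks ran from -0.59 to 2.24 here, so Tgfbr2, Tgfb1, Tgif1 and Tgfb3 lay inside their range. Bmpr1a had no call in these cells, and its difference from the type I receptor Tgfbr1 was not tested.

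Within the epithelium, Id2 rose in cycling cells. These were gated on the proliferation genes Mki67 and Top2a, and numbered 28103, 9650 and 23642. Their median transcript totals were 140, 201 and 164, against 98, 116 and 108 in all epithelial-gated cells. Totals were not matched in this comparison. The Id2 level of the cycling cells was 21.1, 19.7 and 17.0 per 1000, against 16.6, 14.0 and 12.3 in the other epithelial-gated cells of the same tumours. The cycling level was the higher in each tumour, and every cycling level was above every other level. The log2 fold change was 0.43 ± 0.08 (adjusted p = 0.00165, edgeR), where 34.1% of genes were called and Blanks ran from -0.28 to 0.30. The calls over all genes split into 25 higher and 63 lower, into 30 and 48 with TMM, 54 and 62 with DESeq2, and 39 and 9 when cell volume replaced the transcript total, with the Id2 call kept. Without the tumour as a block the adjusted p was 0.836 at the same size (0.43).

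Id1 and Bmpr1a gave no call in cycling cells. Id1 was 1.23, 0.525 and 0.999 per 1000 against 1.0, 0.552 and 1.096, so tumour 1 lay one way and the others the other way (0.03 ± 0.12, adjusted p = 0.856). Bmpr1a was 0.635, 0.672 and 0.344 against 0.582, 0.603 and 0.348 (0.09 ± 0.10, adjusted p = 0.505). Of the 10 list genes none was higher and 1 was lower, Tgfb3 (-0.39), with a median of -0.015 against -0.08.

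Epithelial-gated cells with basal keratin markers (Krt5, Krt14, Krt15 and Trp63) differed by tumour in Id1. In tumour 2 the basal-keratin cells had 1.39 Id1 per 1000 against 0.509 in the other epithelial cells. In tumour 3 the levels were 1.29 and 1.07, and in tumour 1 they were 0.935 and 1.04. Over the 3 tumours the difference did not pass (0.51 ± 0.33, adjusted p = 0.323), nor did those of Id2 (-0.19 ± 0.12, adjusted p = 0.300) and Bmpr1a (-0.13 ± 0.11, adjusted p = 0.424). In this comparison 5.81% of genes were called, 13 higher and 2 lower, against 14 and 5 with TMM, 26 and 10 with cell volume and 37 and 54 with DESeq2. None of the 10 list genes was called, with a median of -0.0033 against -0.05.

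A separate patch of cells in tumour 2, called the island below, had more Id1 than the rest of the section. Epithelial-gated cells were placed in squares of 100 µm, and squares with at least 20 such cells were joined to their neighbours. One connected group of 62 squares and 2755 epithelial-gated cells in tumour 2 had an Id1 level of 4.77 per 1000 and an Id2 level of 1.22, against 0.50 and 15.03 in the largest group of that section. The Id2 level was under the island's highest Blank of 1.30. Its nearest square lay 400 µm from that largest group, and squares with 20 or more kept cells of any class did not join it to the rest either. It also had 166 Krt17, 105 Krt14 and 77.5 Krt5 transcripts per 1000, against 0.688, 0.785 and 1.98, and 12.2 Gata3 against 56.2. Bmpr1a was 0.509 against 0.620, also under that Blank. The other 4 smaller groups of 20 or more squares in tumour 2 had 0.435 to 0.717 Id1 per 1000. The island was picked out after its Id1 and Id2 values had been seen, so it is described without a test. With only the largest group of each section, the basal-keratin difference in Id1 was 0.21 ± 0.16 (adjusted p = 0.388).

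**Figure D3:**
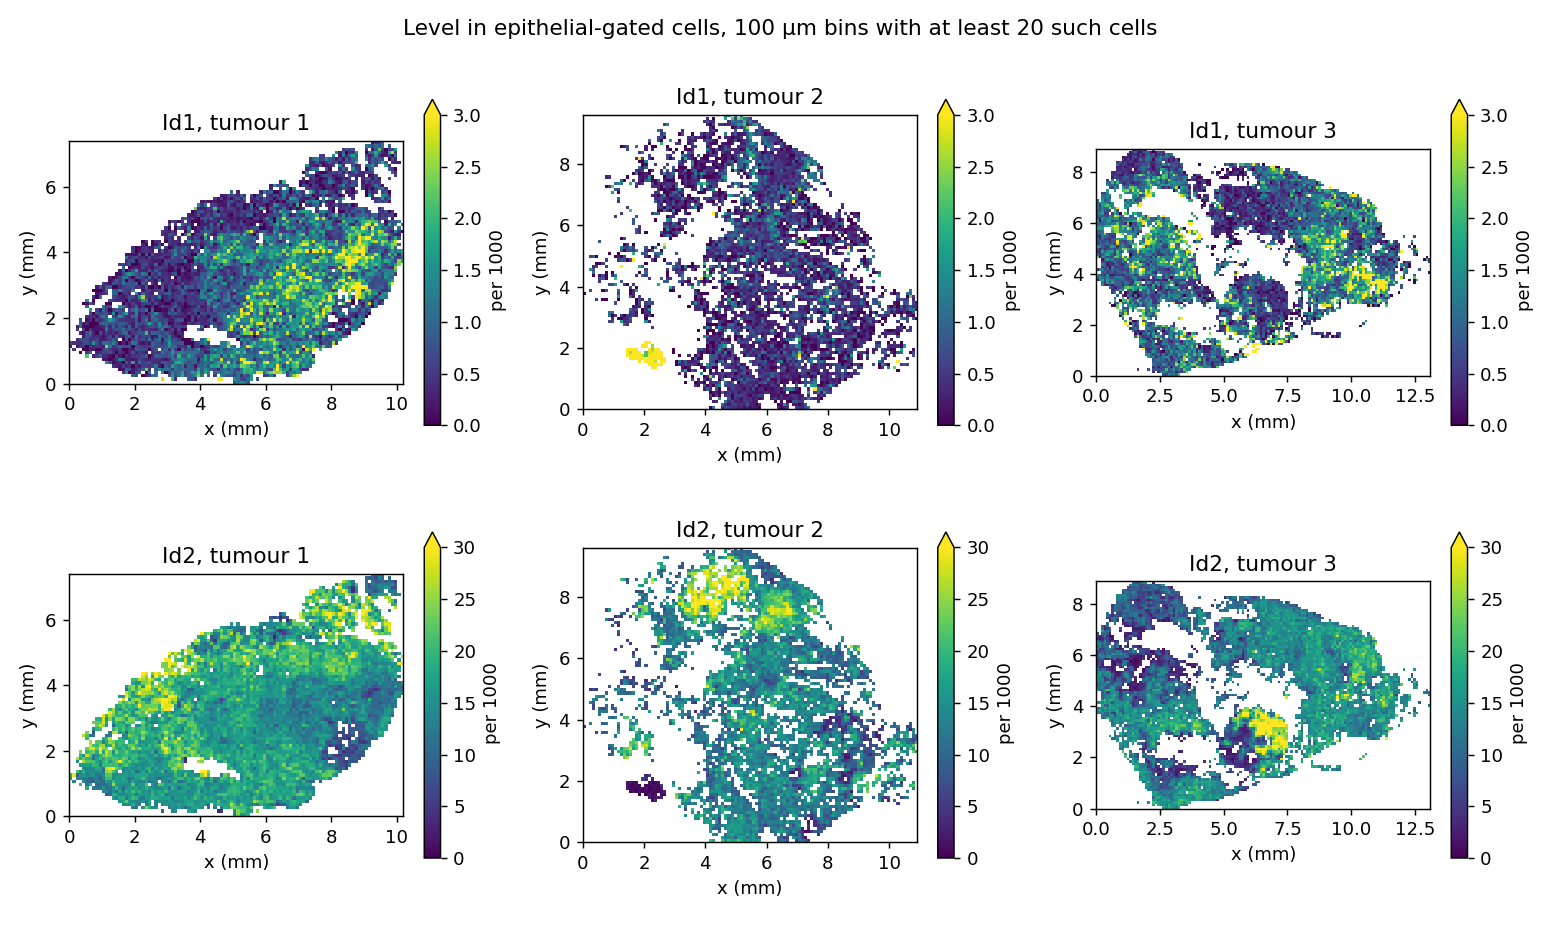
Id1 (top) and Id2 (bottom) in counts per 1000 panel transcripts in epithelial-gated cells, in squares of 100 µm with at least 20 such cells, 1 column per tumour, axes in mm from the section's lowest position. The colour scales end at 3 for Id1 and 30 for Id2, and the island at the lower left of tumour 2 is at the top of the Id1 scale and near the bottom of the Id2 scale.

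Id2 was patterned in space across the epithelium in all 3 tumours, and Id1 in tumours 1 and 3. Moran's I, which is near 0 for a random map and rises as neighbouring squares become alike, was 0.581, 0.724 and 0.704 for Id2 over 4420, 4298 and 5608 squares. For Id1 it was 0.495, 0.249 and 0.440. The highest Blank reached 0.215, 0.257 and 0.286, so Id2 was above every Blank in all tumours and Id1 in tumours 1 and 3. Among the 258 genes Id2 ranked 49, 24 and 41 from the top and Id1 73, 135 and 103, so many genes were more patterned. Bmpr1a, at 0.084, 0.089 and 0.135, lay below the median Blank (0.125, 0.158 and 0.196), and no spatial pattern was detectable for it at a median of 2 to 4 transcripts per square. From the 10th to the 90th percentile of squares, Id2 spanned 11.2 to 23.5 per 1000 in tumour 1, 7.73 to 21.1 in tumour 2 and 5.39 to 19.3 in tumour 3.

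Squares with more Id2 tended to have less Id1, weakly. Their levels per square correlated at r = -0.228, -0.274 and -0.166, given as a description since squares of a section share library, depth and tissue. The lowest Blank reached -0.113, -0.022 and -0.189 with Id1 and -0.155, -0.264 and -0.273 with Id2, so the pair lay beyond the Blanks in tumours 1 and 2 but not in tumour 3. Within the largest connected group the values were -0.228, -0.097 and -0.164, so the tumour 2 value was smaller without the separate groups. At the level of single cells, the odds of seeing both transcripts in 1 cell, compared within strata of transcript total, had a log2 ratio of -0.196, -0.475 and -0.199. The lowest Blank with Id2 was at -0.387, -0.522 and -0.502, beyond the pair in each tumour. With Id1 the lowest Blank was at -0.213, -0.219 and -0.278, beyond the pair in tumours 1 and 3 but not in tumour 2. Within cells the pair thus did not stand out from the Blanks of both genes in any tumour.

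The epithelial gene whose map was most like that of Id2 was Gata3, a transcription factor of luminal mammary fate, with r = 0.540, 0.673 and 0.650. Within the largest connected group of tumour 2 the Gata3 value was 0.549. The next genes after Gata3 were the Wnt co-receptor Lrp5 (mean r 0.540), the Wnt-feedback ubiquitin ligase Rnf43 (0.535), the Wnt receptor Fzd2 (0.453) and the proliferation marker Mki67 (0.445). Fzd2 varied by tumour, with 0.110 in tumour 1 against 0.560 and 0.690. The least alike were the keratin Krt17 (-0.448), S100a6 (-0.409) and the growth factor Pdgfa (-0.344). Krt17 in tumour 2 went from -0.548 over all squares to -0.369 within the largest connected group. Both Gata3 and Krt17 belong to the epithelial gate that chose these cells, and the part of that choice in their values was not tested. In single cells Gata3 again led for Id2, with log2 odds ratios of 0.948, 2.14 and 1.35, followed by Wif1, Mki67, Chad and Tgfb3 (means 0.720, 0.712, 0.618 and 0.579), while Krt17 was at the other end (-1.06). The tumour 2 odds ratios include the cells of the island. In tumour 1 Wif1, Chad and Tgfb3 stood at 0.201, 0.135 and 0.073, the last under the highest Blank of 0.080, so their means rest on tumours 2 and 3.

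For Id1 the most alike maps were those of the secreted protease inhibitor Slpi (mean r 0.325), the ligand Wnt7b (0.293), the Notch ligand Jag1 (0.287), the Wnt inhibitor Wif1 (0.264) and fibronectin, Fn1 (0.262). Wnt7b varied by tumour, from 0.532 in tumour 1 to 0.135 in tumour 2. The least alike were Tead2 (-0.368), a partner of YAP in Hippo signalling, Gata3 (-0.363) and the kinase Map3k1 (-0.310). With Gata3, r in tumour 2 was -0.313 over all squares and -0.183 within the largest connected group. In single cells Krt17, Wnt7b, Krt14, Slpi and Fn1 led for Id1 (mean log2 odds ratios 0.568, 0.519, 0.407, 0.402 and 0.371). Krt17 and Krt14 stood at 0.982 and 0.984 in tumour 2, where the island lies, and at 0.235 and 0.021 in tumour 1, where the highest Blank was at 0.151. In tumour 2 the highest Blank was at 0.414, above Wnt7b (0.368), Slpi (0.353) and Fn1 (0.316). Of these genes Krt17 alone passed the highest Blank in every tumour. Krt17, Krt14 and Gata3 are genes of the epithelial gate, so the limit given for Id2 holds here too.

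The 2 Id genes ran in opposite order along Gata3. Squares were put in 5 groups of equal number by Gata3 level, with Gata3 left out of the denominator. From the lowest to the highest group, Id2 went from 13.6 to 22.2 per 1000 in tumour 1, from 11.1 to 19.99 in tumour 2 and from 7.35 to 17.4 in tumour 3. Id1 went from 1.56 to 0.546, from 0.867 to 0.416 and from 1.56 to 0.719. Every step between neighbouring groups had the same direction in each tumour for both genes. Gata3 was taken up because it led the list for Id2, so this ordering restates the correlations in levels. As a gene of the epithelial gate, Gata3 also helped to choose the cells, and the part of that choice in the ordering was not tested. Within the largest group of tumour 2 the Id1 range was narrower, from 0.666 to 0.415.

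Bmpr1a had no such order. It went from 0.541 to 0.675 per 1000 in tumour 1 and from 0.617 to 0.705 in tumour 2, but from 0.397 to 0.363 in tumour 3. Its most alike maps were those of Atf3, Tead2, Klf4, Nr4a1 and Bglap3, with mean r of 0.112, 0.109, 0.094, 0.087 and 0.073. The highest Blank correlated with Bmpr1a at 0.090, 0.114 and 0.194, a mean of 0.133, above the mean of each of these 5. Tead2, Atf3 and Nr4a1 passed it in tumour 1 (0.161, 0.145 and 0.104) and Nr4a1 in tumour 2 (0.124), but none did in tumour 3. None of them thus stood above false decoding in every tumour. In single cells the same 5 genes led, with mean log2 odds ratios of 0.099 to 0.109, under the highest Blank at 0.352. Klf4 and Atf3 were below 0 in tumour 2 (-0.026 and -0.033).

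**Figure D4:**
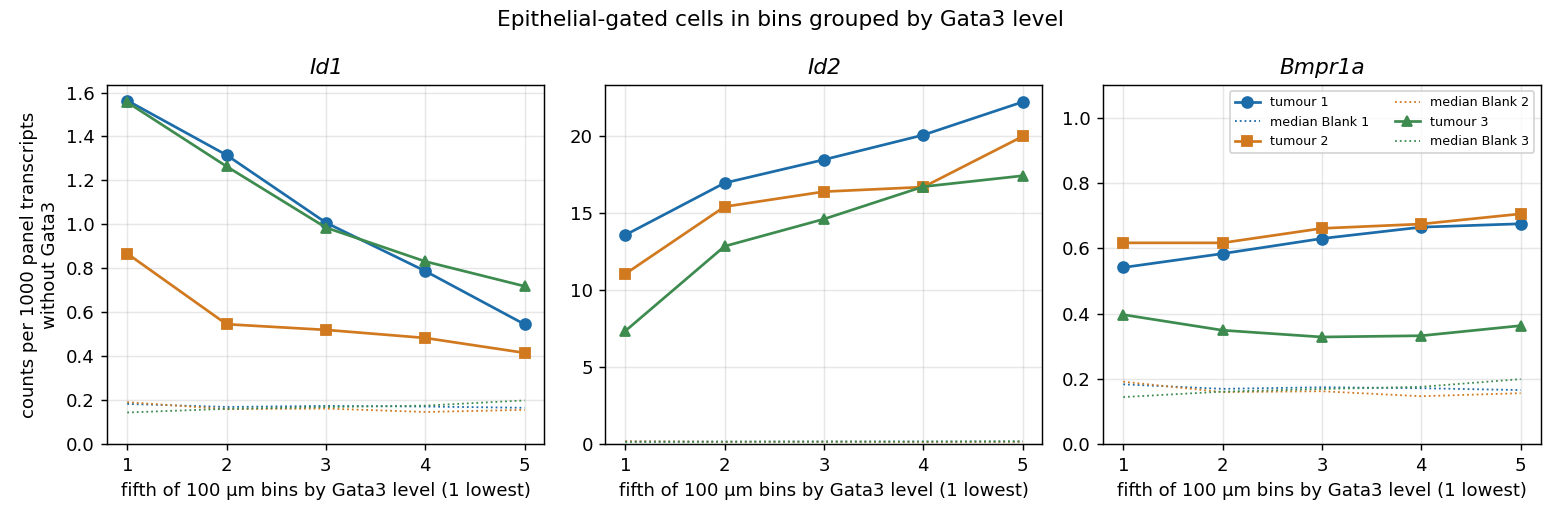
Levels of Id1, Id2 and Bmpr1a in epithelial-gated cells, in counts per 1000 panel transcripts without Gata3, over squares of 100 µm put in 5 groups by Gata3 level, 1 line per tumour, with the median Blank dotted. Id2 goes up and Id1 goes down from the first to the last group in all 3 tumours, while the Bmpr1a lines differ in direction.

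No difference in either Id gene was called between cells with and without a Bmpr1a transcript. The highest Blank was seen in 3.95%, 4.84% and 4.04% of epithelial-gated cells, against 6.05%, 7.65% and 4.09% for Bmpr1a, so at this false-decoding level the comparison cannot show that the genes are unrelated. Cells with a Bmpr1a transcript were compared with cells without one at matched transcript totals. Id1 was 0.958, 0.473 and 1.05 per 1000 in the first and 1.03, 0.524 and 1.075 in the second, lower in each tumour by a small amount (-0.09 ± 0.04, adjusted p = 0.186, edgeR). Id2 was 18.0, 15.7 and 11.8 against 17.0, 15.1 and 12.01 (0.04 ± 0.03, adjusted p = 0.455). Neither passed the test, and 2.72% of the 257 genes tested did, 3 higher and 4 lower. The calls were 13 and 9 without gate markers in the library size, 3 and 7 with cell volume and 1 and 17 with DESeq2. Both transcripts of Bmpr1a and Id1 were seen in 1920, 1166 and 1924 epithelial-gated cells.

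Id2 in cells with an Id1 transcript was 16.1, 13.8 and 11.3 per 1000, against 17.3, 15.1 and 12.3 in matched cells without one. It was lower in each tumour, and the log2 fold change was -0.12 ± 0.04 (adjusted p = 0.145, edgeR). No gene of 257 passed here, so percent called was 0, while 46 had an unadjusted p under the threshold and DESeq2 called 17 higher and 15 lower, Id2 among them at an adjusted p of 0.00083. None of the 10 list genes was called in either comparison.

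By distance from vessels, Id1 had its highest epithelial level in the nearest zone. Epithelial-gated cells less than 10 µm from the centre of an endothelial-gated cell had 1.72, 1.06 and 1.47 Id1 per 1000. At 10 to 20 µm the level was 1.21, 0.647 and 1.21, and at 40 to 60 µm it was 0.951, 0.523 and 1.03. Beyond 150 µm it was 1.16, 0.624 and 1.11. Each tumour was highest in the nearest zone, which held 996 to 2889 cells.

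In the test of cells within 25 µm against cells beyond 75 µm, the Id1 difference was 0.20 ± 0.07 and did not pass (adjusted p = 0.134, edgeR), while 9.3% of genes did and Blanks ran from -0.30 to 0.17. With 15 and 50 µm as the limits it was 0.47 ± 0.10 and passed (adjusted p = 0.0104). More genes passed at those limits, 42 higher and 23 lower of 258, and Blanks were not fitted there. Among cells with no Pecam1 or Cdh5 transcript the difference at the first limits was 0.15. The level in the endothelial-gated cells themselves, 6.18 to 10.97 per 1000, stands beside this, and its part in the nearest zone was not tested.

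Id2 near vessels was 18.0, 14.8 and 14.6 per 1000 against 16.6, 14.2 and 12.5 far from them, without a call (0.13 ± 0.06, adjusted p = 0.200). Bmpr1a was 0.583, 0.624 and 0.332 against 0.586, 0.615 and 0.357 (-0.03 ± 0.06, adjusted p = 0.760). The calls over all genes in this comparison, 18 higher and 6 lower, became 18 and 16 with TMM, 28 and 39 with DESeq2 and 82 and 11 with cell volume, and without tumour 3 there were none.

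**Figure D5:**
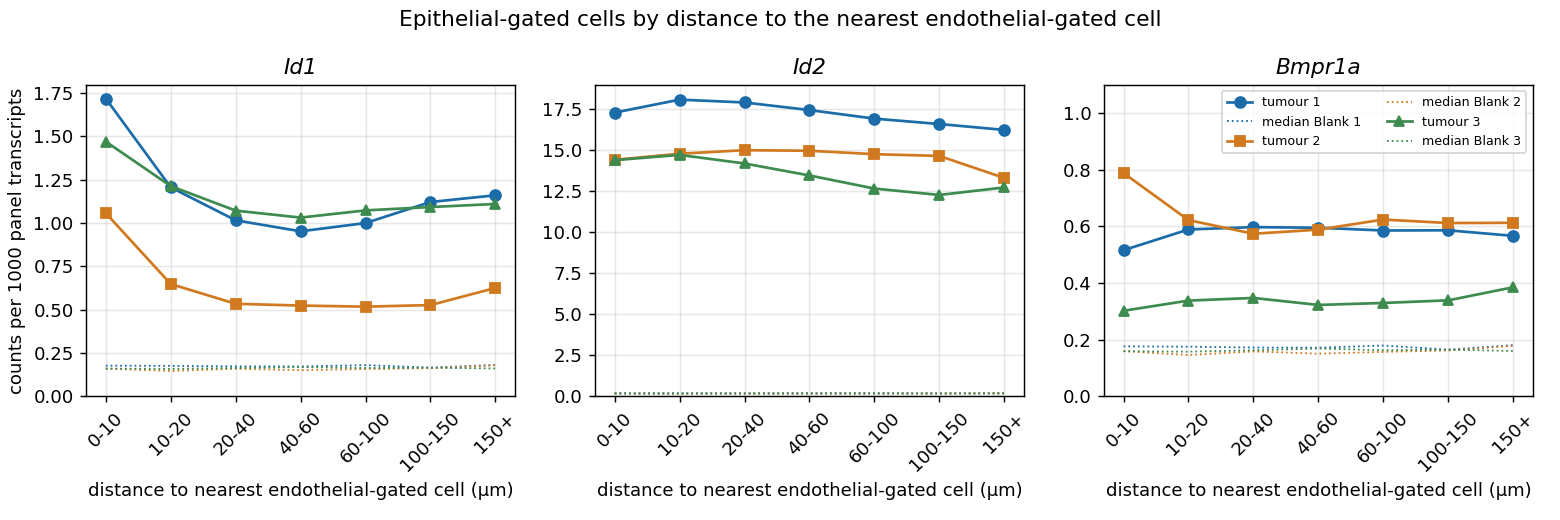
Levels of Id1, Id2 and Bmpr1a in epithelial-gated cells, in counts per 1000 panel transcripts, by distance to the nearest endothelial-gated cell in µm, 1 line per tumour with the median Blank dotted. Id1 is highest in the first zone in all tumours (1.06 to 1.72) and changes less from 20 µm outward. In tumour 1 it goes up from 0.951 at 40 to 60 µm to 1.12 at 100 to 150 µm and 1.16 beyond. In tumour 2 it goes up from 0.525 at 100 to 150 µm to 0.624 beyond.

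The other neighbours and the tumour edge gave no call for the 3 genes. Near fibroblast-gated cells Id1 was 1.11, 0.611 and 1.16 per 1000 against 0.915, 0.423 and 0.990 far from them, higher in each tumour (0.34 ± 0.21, adjusted p = 0.303). Id2 was higher in tumours 1 and 3 and lower in tumour 2 (0.33 ± 0.20, adjusted p = 0.303), and Bmpr1a gave -0.27 ± 0.20 (adjusted p = 0.399). The far cells numbered only 710 in tumour 1, and 6.59% of genes were called, 11 higher and 6 lower, against 13 and 23 with cell volume and 39 and 54 with DESeq2.

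Near macrophage-gated cells Id1 was 0.847, 0.541 and 0.774 per 1000 against 1.16, 0.564 and 1.11, lower in each tumour without passing (-0.35 ± 0.15, adjusted p = 0.427). Id2 (0.05 ± 0.08, adjusted p = 0.861) and Bmpr1a (-0.12 ± 0.12, adjusted p = 0.782) were not called either, against 1.55% of genes, 4 higher and none lower, or 14 and 11 with DESeq2. None of the 10 list genes was called in the comparisons by neighbour.

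At the tumour margin, within 150 µm of the tissue edge, Id1 in epithelial-gated cells was 0.810, 0.618 and 0.833 per 1000 against 1.06, 0.525 and 1.11 at 500 µm or more. Tumour 2 lay opposite to the others (-0.19 ± 0.22, adjusted p = 0.582). Id2 was 18.2, 12.1 and 9.78 against 17.1, 14.9 and 13.0, with tumour 1 opposite to the others (-0.21 ± 0.14, adjusted p = 0.340), and Bmpr1a gave 0.14 ± 0.19 (adjusted p = 0.668). In edgeR no gene passed, 87 had an unadjusted p under the threshold, and DESeq2 called 24 higher and 22 lower, with Id2 at -0.44 (adjusted p = 0.0263). The median was 0.25 over all genes and 0.49 over the Blanks, so Blanks also ran higher at the margin, and with TMM the median over all genes was -0.01 and Bmpr1a turned to -0.12. None of the 10 list genes was called. Margin and interior were not compared in endothelial-gated cells, because the margin of tumour 3 held 59 of them, under the minimum of 100.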

How the data were processed

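Each deposited table gives, per its header, the raw count of every panel gene and Blank code for each segmented cell. The authors' cell tables hold volume (a signal, read as µm3), centres (read as µm) and transcript totals. Tools for decoding and segmentation were not given in the sources used. Scanpy 1.9.3 appears among the submitters' processing notes, with no step attached. The 3 genes and all lists were chosen with earlier results of these data known. One gene of the signalling list is not reported here, and the list's counts and medians leave it out. Named genes were the 3 members, list genes that passed, and per member the 5 genes above the highest Blank with the highest mean correlation and odds ratio, plus, added after their values were seen, 3 at the other end. Counts were summed per tumour and arm (at least 100 cells) and tested with edgeR 4.0.16 (R 4.3.3) on the summed panel transcripts as library size, after filterByExpr, with the tumour as a block because both arms come from the same section. DESeq2 1.42.0, TMM and other gates, scalings and positions were alternatives. In the main fits filterByExpr removed no gene, so the alternative without this filter repeated them. It could not test how the results depend on the filter. Positions carried no imaging field, so the extent of the cells stood for the imaged area when tissue edges were set. The grouping of squares by Gata3 and by connected tissue was also added after the data were seen. Fits were tested on simulated data. No doublet caller was run. The labels give 3 distinct tumours, and their number limits the precision.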

Additional observations from a re-analysis of the deposited data

How the results depend on the processing

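Of 426 alternative values for 33 results, 379 kept direction and threshold side, 20 lost the call, 15 gained one and 12 reversed. The 379 include the unfiltered fits, which repeat the main ones, and most results had no call to lose. Causes were not tested. All values are log2 fold changes over epithelial-gated cells or the other arm. With TMM, Bmpr1a was -0.22 in endothelial- and -0.28 in fibroblast-gated cells, both without a call, -0.12 at the margin and Id2 -0.010 near macrophages, both reversed. With DESeq2, Bmpr1a was -0.21 in endothelial-gated cells (call lost) and -0.10 at the margin (reversed), and calls were gained for Id2 in pericyte-gated cells (-0.35), at the margin (-0.44) and in Id1-positive cells (-0.14), and for Id1 in fibroblast- (0.41) and macrophage-gated cells (-0.49). Without gate markers in the library size, in fibroblast-gated cells Id1 gained a call (0.66) and Id2 (-0.30) and Bmpr1a (-0.13) lost theirs. With cell volume as library size, calls were lost for Id1 in pericyte- (0.45) and Bmpr1a in fibroblast-gated cells (-0.39), and gained for Id2 in pericyte- (-0.40), Id1 in macrophage-gated cells (-0.89) and Id1 (0.32) and Id2 (0.26) near vessels, while Bmpr1a reversed near vessels (0.094) and near macrophages (0.060). The tumour was the block because both arms share a section. Without the replicate block, calls were lost for Bmpr1a in endothelial- (-0.63) and fibroblast-gated cells (-0.38), Id1 in pericyte- (0.55), Id2 in fibroblast-gated (-0.56) and Id2 in cycling cells (0.43). Under the strict gate Id2 in pericyte-gated cells gained a call (-1.76). At 15 and 50 µm from vessels Id1 gained one (0.47) and Bmpr1a reversed (0.033). With positive cells defined from 2 transcripts, Id2 in Bmpr1a-positive cells reversed (-0.033).

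Leaving out 1 tumour at a time gave ranges that lost, gained or reversed a call. For Bmpr1a they ran from -0.71 to -0.51 in endothelial-, -0.094 to 0.029 in pericyte-, -0.45 to -0.34 in fibroblast- and -0.061 to 1.45 in macrophage-gated cells, -0.019 to 0.21 at the margin and -0.054 to 0.0067 near vessels. For Id1 they ran from 0.45 to 0.71 in pericyte- and 0.19 to 0.53 in fibroblast-gated cells and from -0.10 to 0.11 in cycling cells. For Id2 they ran from -0.42 to -0.16 in pericyte- and -0.71 to -0.46 in fibroblast-gated cells. Of the alternatives, 3 were chosen after seeing the data, and none changed a call of the 3 genes. They left out cells with over 5 Blank transcripts, outlined tissue from kept cells or kept the largest connected group of squares. Beside the splits given above, these counts of calls over all genes moved by more than 1.5 times. In pericyte-gated cells 71 became 127 (DESeq2), 25 (no tumour block) and 165 (strict gate). In fibroblast-gated cells 162 became 58 (no block) and 52 (without tumour 2), and in macrophage-gated cells 139 became 90 (no block) and 91 (without tumour 1). In basal-keratin cells 15 became 91 (DESeq2), 36 (cell volume), 8 (no block) and 7, 56 and 8 (without tumours 1, 2 and 3). In cycling cells 88 became 48 (cell volume), 3 (no block) and 53 and 50 (without tumours 2 and 3). At the margin 0 became 2 (TMM), 46 (DESeq2), 13 (no gate markers) and 5 (tissue from kept cells). Near vessels 24 became 67 (DESeq2), 93 (cell volume), 1 (no block), 0 (without tumour 3), 48 (largest group) and 65 (15 and 50 µm). Near fibroblasts 17 became 10 (TMM, and cells with no fibroblast marker), 93 (DESeq2), 36 (cell volume), 3 (no block), 7, 29 and 0 (without tumours 1, 2 and 3), 32 (largest group) and 53 (15 and 50 µm). Near macrophages 4 became 1 (TMM), 25 (DESeq2), 17 (without tumour 2) and 0 (no block, without tumour 1, and cells with no macrophage marker). In Bmpr1a-positive cells 7 became 27 (TMM), 18 (DESeq2), 22 (no gate markers), 0 (no block), 18, 4 and 31 (without tumours 1, 2 and 3) and 12 (without Blank-rich cells), and in Id1-positive cells 0 became 32 (DESeq2), 2 (cell volume) and 23 (without tumour 2). False decoding limits Bmpr1a (total 0.81 times the highest Blank in tumour 3).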
